A study of Xenopus laevis with 24 samples.

Results

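The records described here carry the names of the machinery that drives and polices cell division: cyclins, cyclin-dependent kinases (CDKs), CDC25 phosphatases, minichromosome maintenance (MCM) and origin recognition complex (ORC) proteins, polo-like kinases, regulators of mitotic exit and kinetochore proteins. They were picked by words in the deposited gene description (cyclin, cyclin-dependent kinase, cell division cycle, cdc, minichromosome maintenance, aurora, polo-like kinase, origin recognition or kinetochore, leaving out protocadherins), together with a mean level of at least 1 FPKM over all libraries. FPKM is a fragment count divided by transcript length and by the mapped fragments of the library, so levels of different transcripts can be set side by side. The word cyclin counted only with no letter before it and no -like after it, and cyclin M metal transporters were left out. So read, the words matched 77 of 31306 records and 76 passed the level, of 19635 records in all that did. The record left out was a CDK8-like kinase at a mean of 0.305 FPKM, and the members just inside were the lower of 2 cyclin G1 records at 1.24 FPKM, the lower Cdc45 record at 1.32 and the lower cyclin D2 record at 1.33. Word searches also catch names that only sound like cell division: 18 of the 76 (CDC42 and its effectors, CDC37, CDC5-like, CDK9, CDK5, cyclin L1, cyclin G1 and others) are known mainly for the cytoskeleton, chaperoning, splicing, transcription or stress, and are kept apart as members by name, leaving 58. The word aurora matched 0 records, and Aurora kinases, CDK2, cyclin B2, MCM2 and MCM6 were not analysed here.

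A cell divides when CDKs, switched on by binding a cyclin, phosphorylate their substrates in order: cyclins D and E lead into DNA replication, cyclins A and B into mitosis, and the CDC25 phosphatases strip the inhibitory phosphates that Wee1-type kinases put on CDK1. Replication origins are licensed by ORC, Cdc6 and the MCM helicase and fired by Cdc7 and Cdc45, while the anaphase-promoting complex (APC/C) with CDC20 destroys cyclins so that mitosis can end. The frog egg is loaded with much of this machinery as maternal RNA and protein, which power rapid synchronous cleavages with no growth phases; after the midblastula transition the cycles lengthen, embryonic transcription starts, and by gastrulation maternal and embryonic forms of several of these genes are known to replace each other.

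Whole *Xenopus laevis* gastrulae of stage 10.5 were profiled by RNA-seq in pools of 5 embryos, taken from dishes of 25. Embryos had been kept from stage 6 to 7 in 1 µM TTNPB, a synthetic agonist of the retinoic acid receptors (RARs), in 1 µM AGN193109, a synthetic RAR inverse agonist, or in 0.1% ethanol alone (vehicle), and no mutation or transgene is named for any group. Embryos came from 2 clutches, here D and E as labelled, and each exposure has 8 libraries, 4 from each clutch, 24 in all. The pools of a clutch are aliquots of sibling embryos, so p-values measure the spread between pools, and a comparison of clutches compares these 2 sibships and everything else that differed between their dishes and libraries, which cannot be told apart.

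The exposures are visible in the retinoic acid-degrading enzyme cyp26a1, a direct RAR target, which stood at 18.3 to 34.7 FPKM (median 25.4) in vehicle, 205 to 278 (median 238) in TTNPB and 3.11 to 12.9 (median 8.81) in AGN193109, with no overlap between the 3 exposures. All 7 gastrula markers were present, brachyury and mixer at means of 131 and 120.1 FPKM, and all 5 markers of later tissues (globin, heart and muscle myosin, insulin) had means under 0.5 FPKM. Library AGN193109 4E stood apart: its 10 most abundant records took 79.2% of the FPKM against 44.1 to 62.8% in the other 23 libraries, the 76 members summed to 916 FPKM against 1672 to 1947, and it was the lowest of the 24 libraries for 48 of the 76. Values without it are given for many results, but not for each one that it changed. Among all 24 libraries, 3 member values lay under 0.001 FPKM (Spc25 in AGN193109 3E, the lower Cdc45 record in AGN193109 4E and the lower cyclin D2 record in vehicle 1D). In whole embryos, fewer cells of a kind and less RNA per cell cannot be told apart. Where 2 records carry the same gene name, as for cyclins A1, B3, D2 and G1, MCM4, Cdc45, Nuf2, cdc25A and Plx3, they are called the higher and the lower record by mean level. They may be the paired copies of this species' duplicated genome or repeat entries, and reads could be shared between them, so each such level is uncertain.

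The cell cycle members were well expressed for this table: the median of their means was 11.4 FPKM against 5.18 over all tested records, 9 had means of at least 50 FPKM, 32 lay between 10 and 50, and 35 were under 10. The highest means were those of cyclin B1 (183 FPKM), MCM7 (130.1), CDC42 (87.2), cyclin D1 (86.2), the higher cyclin B3 record (81.3), cyclin E1 (77.3), cyclin A2 (61.8), CDK9 (55.7), the lower cyclin B3 record (51.3) and cyclin E3 (49.2). Cyclins thus took 7 of the first 10 places. Over the 8 vehicle libraries, the coefficient of variation of a member ranged from 5.34% for the higher cyclin B3 record to 64.8% for the lower cyclin D2 record, with a median of 21%.

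**Figure D1:**
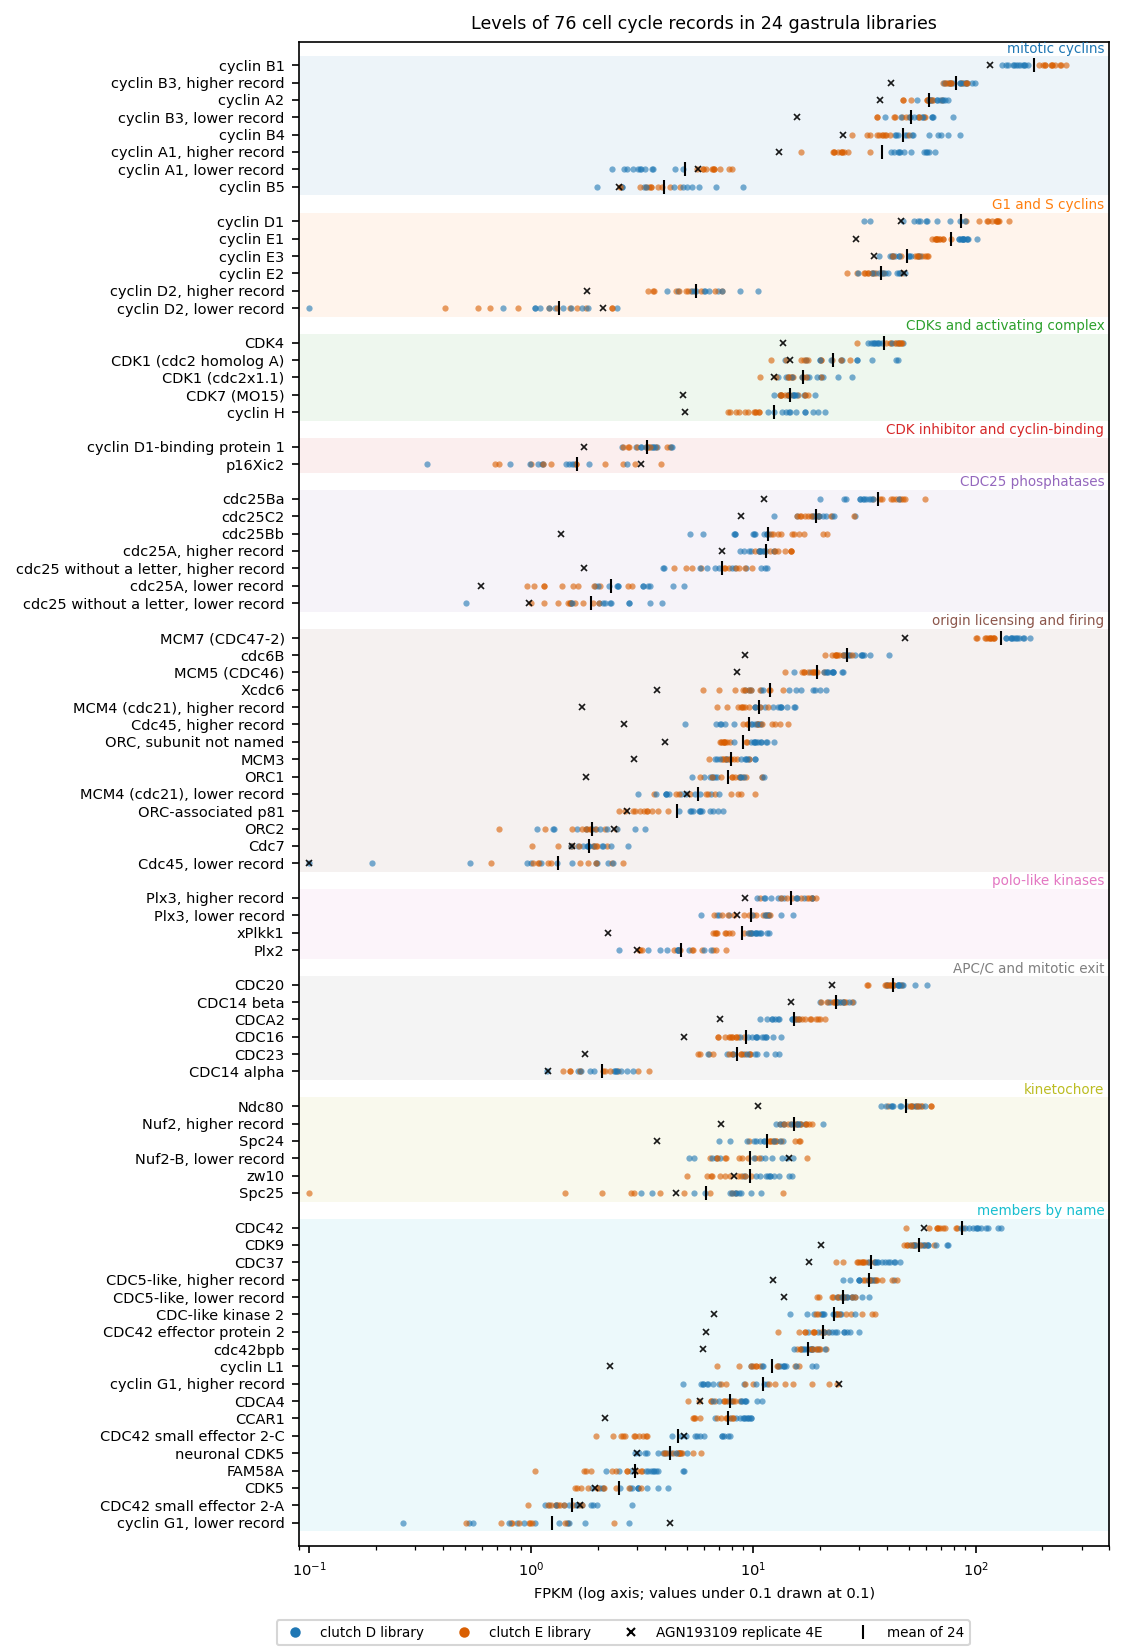
Level of each of the 76 members in the 24 libraries, as FPKM on a log axis, grouped by role; each point is 1 library, coloured by clutch, the vertical tick is the mean of 24 and the cross is library AGN193109 4E. Cyclin B1 is highest at a mean of 183 FPKM, and the cross lies at the low end of most rows.

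Among the mitotic cyclins, the partners of CDK1, cyclin B1 led at 152 to 254 FPKM in vehicle (median 183). Its level in TTNPB was 131 to 242 (median 184), and in AGN193109 116 to 240.3 (median 158). The 3 exposures overlapped almost wholly for cyclin B1. Cyclin B3, needed for anaphase onset in flies and in mouse oocytes, was next: in vehicle its higher record stood at 77.4 to 91.5 FPKM (median 87.6) and its lower record at 36.0 to 58.1 (median 51.7). Cyclin A2, the A-type cyclin of somatic cells, had 47.1 to 72.6 FPKM (median 62.7) in vehicle. Cyclin A1, the A-type cyclin stored in frog eggs and known to decline around gastrulation, had 23.0 to 65.7 FPKM (median 39.0) in its higher record, a broad range that splits by clutch as described below. Of the B-type cyclins known as maternal, cyclin B4 stood at 38.1 to 85.5 FPKM (median 49.7) and cyclin B5 at 2.51 to 5.67 (median 3.78).

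Of the cyclins of G1 and S phase, cyclin D1, the partner of CDK4, spanned 31.5 to 127 FPKM in vehicle (median 104), and cyclin E1, the partner of CDK2, 65.4 to 101.2 (median 77.7). Cyclin E3 and cyclin E2 were lower, with vehicle medians of 50.8 and 34.5 FPKM, and the higher cyclin D2 record had 3.56 to 6.69 (median 4.85). Cyclin E1 exceeded cyclin E2 in 23 of 24 libraries, by a median ratio of 2.17, and cyclin D1 exceeded cyclin D2 in 24 of 24, by a median ratio of 14.6. The exception for cyclin E1 was AGN193109 4E, at 29.0 FPKM against 47.6 for cyclin E2. The pairs for which ratios are given were chosen after their values were seen.

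The CDKs ranked below the leading cyclins. CDK4 had 33.9 to 45.8 FPKM in vehicle (median 41.5), and the 2 records named as CDK1, cdc2 homolog A and cdc2x1.1, had medians of 21.0 and 15.8. Cyclin B1 was above cdc2 homolog A in all 24 libraries, with a median ratio of 8.81. CDK7 and cyclin H form the kinase that activates other CDKs, and their levels were close, 12.4 to 17.1 FPKM (median 14.8) and 7.85 to 20.9 (median 11.5), a median ratio of 1.2. The only CDK inhibitor found by name, p16Xic2, was near the level threshold at 0.686 to 2.92 FPKM (median 1.37), and cyclin D1-binding protein 1, an inhibitor of G1 cyclin signalling in mammals, had 2.57 to 4.25 (median 3.28). The CDC25 phosphatases spread widely, from a vehicle median of 39.8 FPKM for cdc25Ba, 18.5 for cdc25C2 and 12.4 for the higher cdc25A record down to 2.19 and 1.47 for the lower record of cdc25A and of a cdc25 without a letter.

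Records of subunits of 1 complex were far from equal in level. Only records caught by the words are compared, so MCM2, MCM6 and any further record of a subunit are missing. The MCM ring holds its protein subunits in equal number, but the values here are RNA levels of single records and do not measure protein. In vehicle, MCM7 stood at 100.7 to 164 FPKM (median 134), MCM5 at 13.8 to 22.9 (median 19.7), the higher MCM4 record at 6.82 to 14.2 (median 11.1) and MCM3 at 6.31 to 9.28 (median 7.33). MCM7 exceeded MCM5 in 24 of 24 libraries, by 5.39 to 9.48 times (median 6.7), and MCM3 by a median of 16.2 times. A like spread was seen in the NDC80 complex, the microtubule-holding arm of the kinetochore: Ndc80 had 42.2 to 59.3 FPKM in vehicle (median 52.4), the higher Nuf2 record 13.2 to 18.4 (median 15.2), Spc24 10.7 to 15.9 (median 13.2) and Spc25 2.8 to 13.5 (median 7.999). Ndc80 exceeded Nuf2 and Spc24 in 24 of 24 libraries, with median ratios of 3.46 and 4.23.

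The loader of MCM, Cdc6, is known in frogs in a maternal and a zygotic form, and was present here in 2 records that these data do not assign to those forms. The record cdc6B had 22.6 to 40.9 FPKM in vehicle (median 28.2) and Xcdc6 8.96 to 19.97 (median 14.6), and cdc6B was higher in 24 of 24 libraries, by a median of 2.41 times. ORC1 (vehicle median 8.11 FPKM), ORC2 (1.80), the kinase Cdc7 (1.67) and the helicase factor Cdc45 (higher record 10.5, lower record 1.20) were among the lower members. The polo-like kinases, a family with roles in mitosis and stress responses, had vehicle medians of 15.3 FPKM for the higher Plx3 record, 9.71 for the lower, 8.95 for xPlkk1 (a kinase that acts upstream of Plx1) and 3.48 for Plx2. Of the APC/C and exit group, the activator CDC20 was highest at 32.5 to 60.1 FPKM in vehicle (median 43.3), followed by the phosphatase CDC14 beta (median 24.9), CDCA2 (14.2), and the APC/C subunits CDC16 (9.37) and CDC23 (9.001).

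The first question of the design is whether turning RAR signalling up or down changes expression in gastrulae. In the cell cycle members no change passed the test in either direction. With limma on log2(FPKM + 1), exposure and clutch as terms and Benjamini-Hochberg adjustment over all 19635 tested records, 0 of 76 members were called at an adjusted p under 0.05 in TTNPB against vehicle, where 0.830% of all tested records were called. The counts were also 0 of 76 in AGN193109 against vehicle (background 0.0204%) and 0 of 76 in TTNPB against AGN193109 (background 1.08%). At an unadjusted p under 0.05 the members gave 5, 6 and 5 in these comparisons, against backgrounds of 5.90%, 8.32% and 7.73% of all tested records. The 3 comparisons share libraries pairwise, so their values stand side by side and are not independent.

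On the log2(FPKM + 1) scale, the size of what could have been missed is limited for most members. This scale understates changes of low records, and 35 of the 76 members had means under 10 FPKM. For low records an interval within 1 does not hold FPKM itself to the same bound. The 95% interval of the log2 difference lay within 1 in either direction for 75, 74 and 75 of the 76 members in the 3 comparisons in that order, and within 0.5 for 44, 47 and 45. Median log2 differences of the members were 0.01, -0.07 and 0.06, beside 0.01, -0.03 and 0.04 over all tested records. Without library AGN193109 4E they were 0.01, 0.04 and -0.03, beside 0.01, 0.06 and -0.05 over all tested records, so the sign of the median turned in both comparisons that use AGN193109, as did the sign of 25 and 24 of the 76 members. Counts stayed at 0 in clutch D alone and in clutch E alone, for which the shares of all tested records are not given. Without that library they were still 0 in each comparison, beside backgrounds of 1.53%, 0.0815% and 1.50%, and the smallest adjusted p of a member was 0.0784, 0.111 and 0.0531. Before adjustment 11, 8 and 7 members then had a p under 0.05, beside 10.2%, 13.4% and 10.9% of all tested records.

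**Figure D2:**
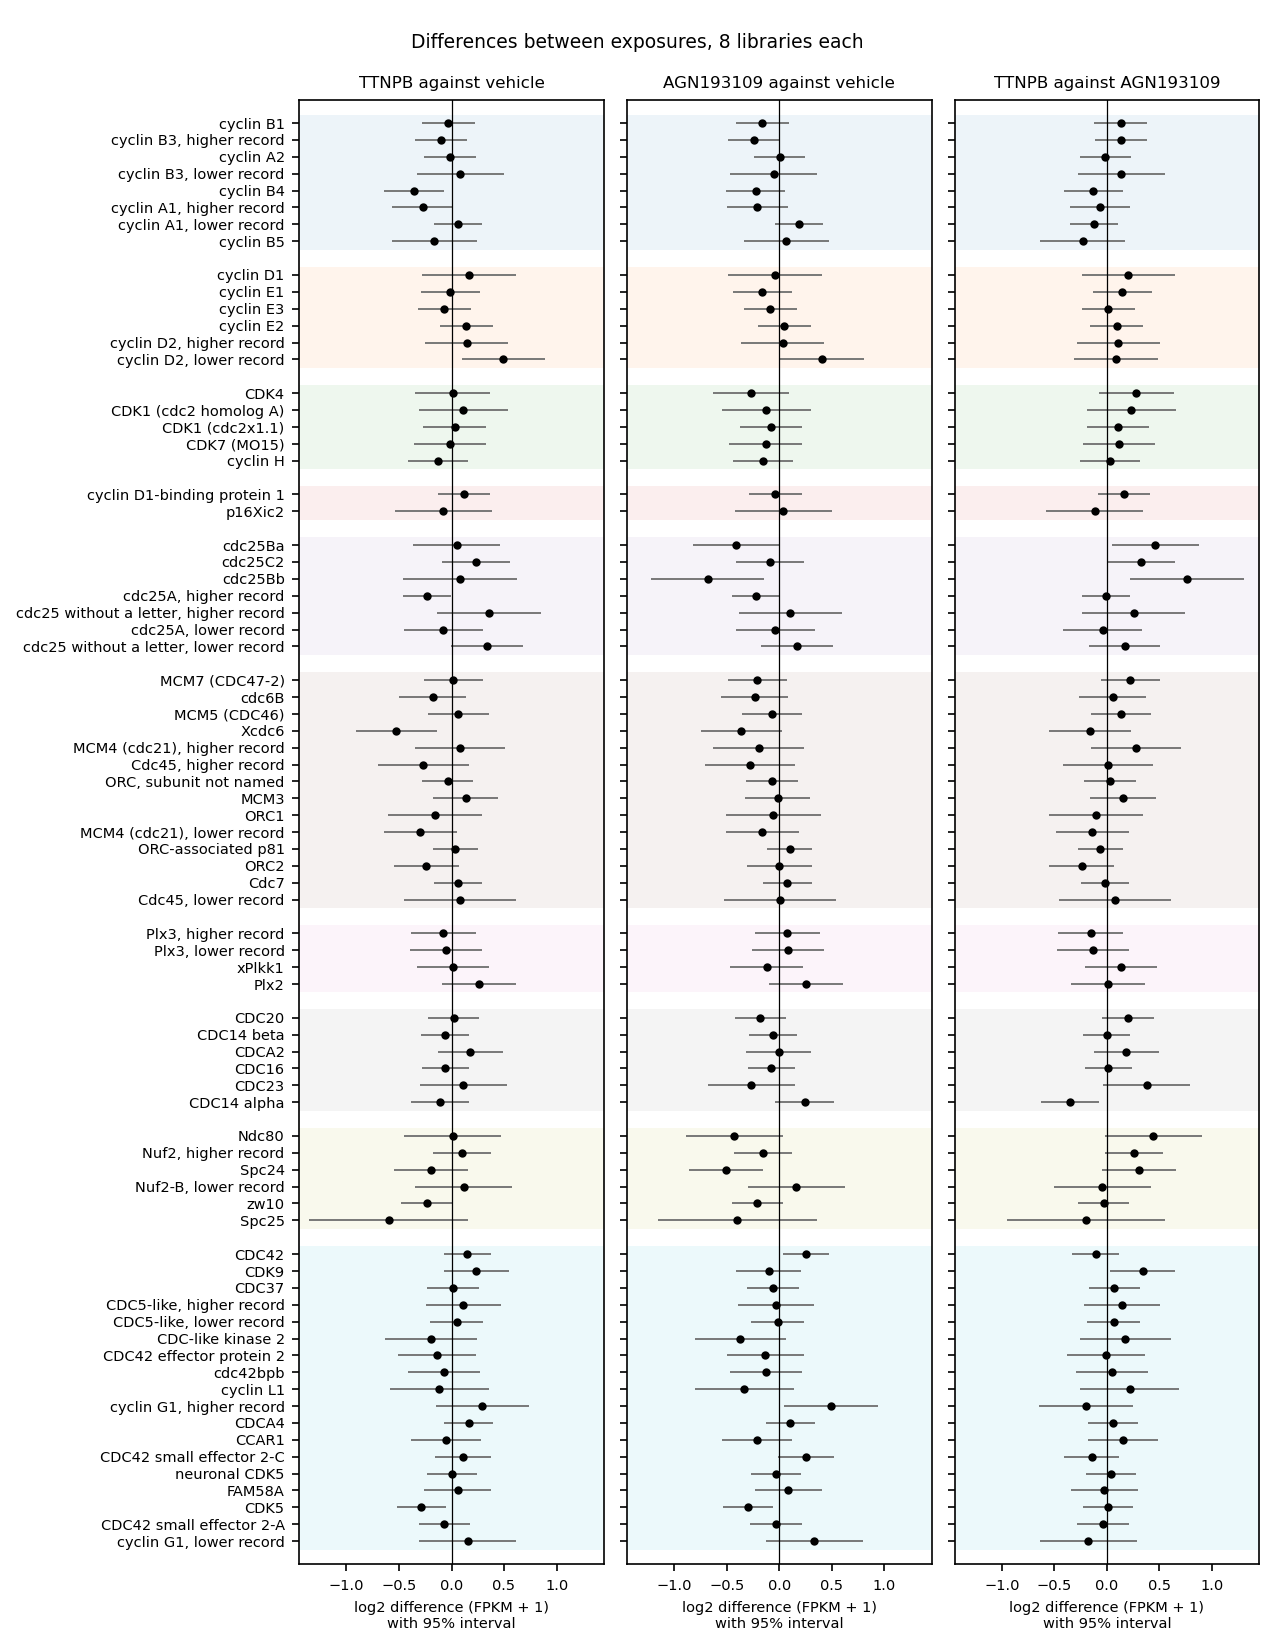
Log2 difference in FPKM + 1 of each member (point) with its 95% interval (bar) for TTNPB against vehicle, AGN193109 against vehicle and TTNPB against AGN193109, 8 libraries each. Most intervals cross 0 and lie within 1 in either direction, and no member passed an adjusted p of 0.05.

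By role, the mitotic cyclins ranged from -0.36 to 0.08 in log2 difference between TTNPB and vehicle and from -0.24 to 0.19 between AGN193109 and vehicle, with 0 of 8 called. The G1 and S cyclins ranged from -0.07 to 0.49 and from -0.16 to 0.41, with 0 of 6 called, and the CDKs with their activating complex from -0.13 to 0.11 and from -0.27 to -0.08, with 0 of 5 called. In origin licensing and firing the ranges were -0.52 to 0.13 and -0.36 to 0.10, with 0 of 14 called. Without library 4E the AGN193109 ranges were -0.16 to 0.23 for the mitotic cyclins, -0.02 to 0.36 for the G1 and S cyclins, -0.10 to 0.05 for the CDKs with their activating complex and -0.21 to 0.18 for origin licensing and firing, so the CDK group, wholly below 0 with that library, no longer was. Of the abundant cyclins, the difference of cyclin B1 was -0.03 in TTNPB, the difference of cyclin E1 was -0.01, and that of cyclin A2 was -0.01. Cyclin D1, also abundant, spanned 31.5 to 127 FPKM over the vehicle libraries, and its difference is not given here.

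The members of lowest p in TTNPB against vehicle, over all 24 libraries, were Xcdc6, cyclin B4 and the lower cyclin D2 record. Without AGN193109 4E the smallest adjusted p of a member, 0.0784 (limma), was not that of Xcdc6, so this order by p holds only with that library. Xcdc6, the MCM loader, had 8.96 to 19.97 FPKM in vehicle (median 14.6), 5.91 to 11.7 in TTNPB (median 9.55) and 3.69 to 21.1 in AGN193109 (median 10.8). In clutch D its vehicle libraries stood at 19.97, 16.4, 15.6 and 18.9 FPKM and its TTNPB libraries at 9.51, 9.19, 11.1 and 9.71, with no overlap. In clutch E the vehicle libraries (8.96, 11.8, 13.5 and 9.70 FPKM) and the TTNPB libraries (11.7, 9.58, 9.15 and 5.91) overlapped. The TTNPB response of Xcdc6 was not called different between the clutches (limma, clutch E minus clutch D 0.51 ± 0.27 without AGN193109 4E, adjusted p 0.991). Xcdc6 was picked for its low p in this comparison, and the share of all tested records with no overlap within 1 clutch was not counted. The gap in clutch D is therefore description and adds no support. The log2 difference of Xcdc6 was -0.52 ± 0.19 (SE), 95% interval -0.91 to -0.14, and it did not pass the adjustment (limma, adjusted p 0.444, or 0.0931 without AGN193109 4E). The maternal cyclin B4 had a difference of -0.36 ± 0.14 (adjusted p 0.542), and cyclin D2 of 0.49 ± 0.19 (adjusted p 0.566) at levels of 1.63 FPKM against 0.870 in medians.

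In AGN193109 against vehicle, over all 24 libraries, the lowest p belonged to Spc24, cdc25Bb and CDK5. Without AGN193109 4E the smallest adjusted p of a member, 0.111 (limma), was that of neither Spc24 nor cdc25Bb, so this order by p holds only with that library. The kinetochore protein Spc24 had 10.7 to 15.9 FPKM in vehicle and 3.69 to 16.2 in AGN193109 (median 9.92), a log2 difference of -0.50 ± 0.17 (limma, adjusted p 0.400), and of -0.33 ± 0.11 without AGN193109 4E (adjusted p 0.170). The CDK1-activating phosphatase cdc25Bb had 9.94 to 16.1 FPKM in vehicle (median 11.9), 8.22 to 21.4 in TTNPB (median 13.2) and 1.35 to 13.3 in AGN193109 (median 9.14). Library 4E alone held the 1.35 FPKM; the other 7 AGN193109 libraries started at 5.16. Its difference from vehicle was -0.68 ± 0.26 (adjusted p 0.477), and -0.38 ± 0.13 without 4E (adjusted p 0.198). CDK5, a kinase of neurons that is a CDK in sequence, had a difference of -0.30 ± 0.11 (adjusted p 0.484).

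Between TTNPB and AGN193109, cdc25Bb differed by 0.76 ± 0.26 (limma, adjusted p 0.300), cdc25Ba by 0.46 ± 0.20 (adjusted p 0.550) and the mitotic exit phosphatase CDC14 alpha by -0.35 ± 0.14 (adjusted p 0.411). In clutch E the 4 TTNPB libraries had cdc25Bb at 16.97, 14.8, 21.4 and 20.6 FPKM and the AGN193109 libraries at 13.3, 12.3, 11.5 and 1.35, with no overlap, while in clutch D the ranges of 8.22 to 11.5 and 5.16 to 10.1 overlapped. Whether this contrast differed between the clutches was not tested, and the share of all tested records with such a gap was not counted. Since cdc25Bb was picked for its low p, the gap in clutch E is description and adds no support. CDC14 alpha was low throughout, at 1.17 to 2.41 FPKM in TTNPB and 1.19 to 3.38 in AGN193109. Without AGN193109 4E, CDC14 alpha differed by -0.45 ± 0.12 (adjusted p 0.0531) cdc25Bb by 0.45 ± 0.13 (adjusted p 0.0963) and cdc25Ba by 0.25 ± 0.12 (adjusted p 0.442). Weighting each library by its estimated quality gave, of the alternatives run, the only member called in any of these comparisons, CDC14 alpha at -0.44 (adjusted p 0.0385).

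The responses were then compared between clutches with an interaction term. No member was called for TTNPB (0 of 76, background 0%) or for AGN193109 (0 of 76, background 0%), and before adjustment 0 and 2 members had a p under 0.05, against 2.59% and 5.68% of all tested records. The 2 were D-type cyclins, the higher cyclin D2 record at -0.98 ± 0.32 (limma, p 0.00576, adjusted p 0.798) and cyclin D1 at -0.98 ± 0.40 (p 0.0222, adjusted p 0.798). In AGN193109 the higher cyclin D2 record stood at 6.93, 10.5, 6.01 and 8.73 FPKM in clutch D and at 5.30, 3.52, 3.33 and 1.77 in clutch E. Library 4E held the lowest clutch E value of both cyclins in AGN193109. Without it the terms were -0.76 ± 0.28 for the higher cyclin D2 record (p 0.0135, adjusted p 0.784) and -0.68 ± 0.33 for cyclin D1 (p 0.0547, adjusted p 0.796). Then 3 and 2 members had an unadjusted p under 0.05, beside 5.11% and 6.25% of all tested records, with 0 called. For AGN193109 these 2 were the higher cyclin D2 record and the APC/C subunit CDC16 (limma, 0.32 ± 0.15, p 0.0383, adjusted p 0.787), no longer cyclin D1. The 3 for TTNPB were cdc25Bb (limma, 0.58 ± 0.23, p 0.0196), the higher MCM4 record (0.45 ± 0.19, p 0.0234) and CDC16 (0.34 ± 0.14, p 0.0238), each at adjusted p 0.922. CDC16 thus had terms of like size for both exposures, and both terms use the same vehicle libraries. Vehicle libraries overlapped between the clutches for the higher cyclin D2 record, at 4.06 to 6.31 and 3.56 to 6.69 FPKM. Intervals were wide here: 54 and 47 of the 76 members had an interval within 1 of 0 on the log2 scale.

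Regulators whose names the rule does not catch, 54 records of kinases, checkpoint proteins, cohesin, condensin and centromere proteins listed for comparison, of which 53 were tested, gave 0, 0 and 2 calls in the same 3 comparisons, the last being 3.77% of the list beside 1.08% of all tested records. Both calls were higher in TTNPB than in AGN193109. The CDK1-inhibiting kinase WEE2A had 7.35 to 10.6 FPKM in TTNPB (median 9.38) and 4.48 to 8.56 in AGN193109 (median 6.90), a log2 difference of 0.38 ± 0.09 (limma, adjusted p 0.0336), and 0.34 ± 0.08 without AGN193109 4E (adjusted p 0.0144). The stress-response protein XGadd45-gamma had 20.8 to 32.5 FPKM in TTNPB (median 25.1), 4.26 to 21.3 in AGN193109 (median 15.0) and 4.81 to 23.4 in vehicle (median 14.5). Its difference from AGN193109 was 0.97 ± 0.23 (adjusted p 0.0342), a call lost without AGN193109 4E at 0.83 ± 0.22 (adjusted p 0.0540). Without that library the list gained XGadd45-gamma in TTNPB against vehicle, at 0.81 ± 0.21 (adjusted p 0.0494), and E2F7, a repressor of S-phase genes, which fell in TTNPB relative to AGN193109 by 0.29 on the log2 scale (adjusted p 0.00668).

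More members were called between the clutches than between the exposures. Of the 76 members, 30 were called between clutch E and clutch D, 4 higher and 26 lower in E (limma, adjusted p under 0.05), or 39.5% beside a background of 31.9% of all tested records, 3.73% higher and 28.1% lower. The excess of lower calls follows the whole table: the median log2 difference was -0.20 over all tested records and -0.18 over the members, and the median FPKM of a library was 5.12 to 5.76 in clutch D and 4.23 to 5.04 in clutch E, 2.77 in AGN193109 4E. With quantile normalization, which removes this shift, 33 members were called (background 27.5%), 17 higher and 16 lower, where 13.2% and 14.3% of all records were called higher and lower. Only 20 of the 30 calls kept their direction and their side of the threshold under it. Upper-quartile scaling gave 35 (background 27.7%), 18 higher and 17 lower beside 12.8% and 14.9%. Without AGN193109 4E the count was 41 (background 39.6%), 14 higher and 27 lower beside 8.95% and 30.6%, with 29 of the 30 kept. Differences below are therefore given as deposited and, where it matters, after quantile normalization.

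**Figure D3:**
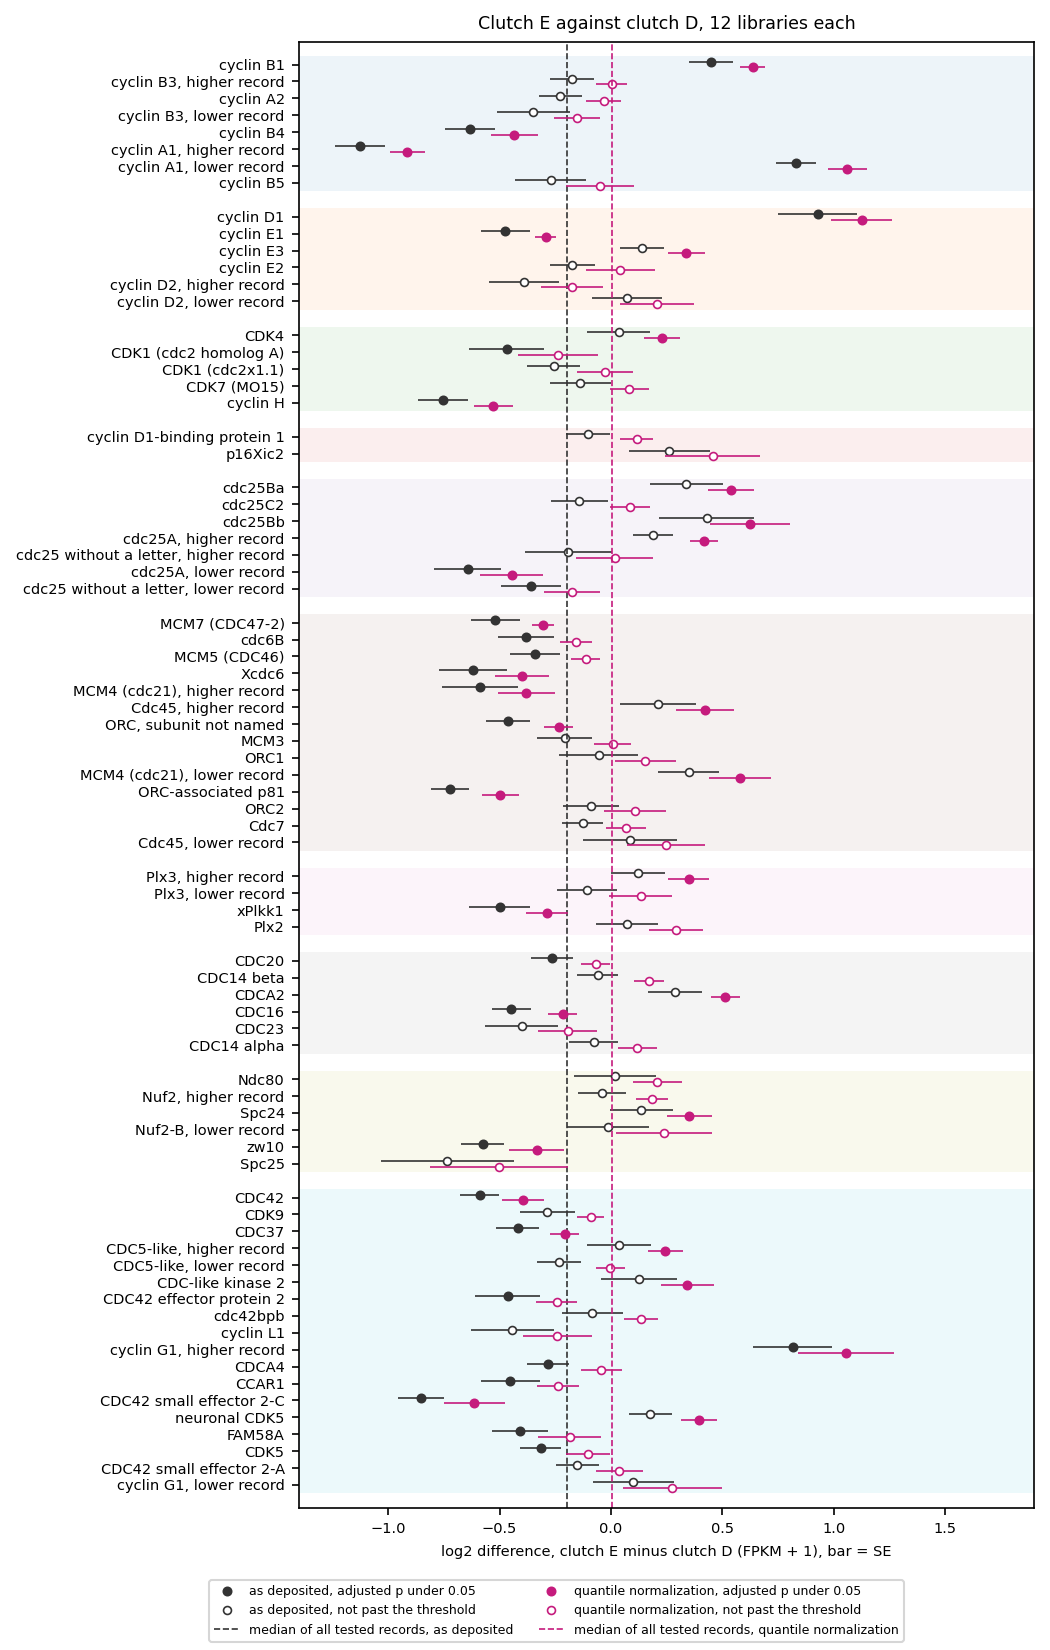
Log2 difference in FPKM + 1 between clutch E and clutch D (12 libraries each) for each member, with bars of 1 SE, as deposited (dark) and after quantile normalization (magenta); filled points passed an adjusted p of 0.05. Dashed lines mark the medians of all tested records, -0.20 and 0.00; cyclins B1, D1 and the lower A1 record lie to the right under both scalings.

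The 4 members called higher in clutch E as deposited were all cyclins, but this depended on library AGN193109 4E and on the scaling. When that library was left out, 14 members were called higher. Among them were 3 CDC25 phosphatases, 2 members of origin licensing and firing and 2 kinetochore members. Quantile normalization gave 17 higher, again with 3 CDC25 phosphatases. Whether cyclins were over-represented among the higher calls was not tested. Cyclin D1 stood at 31.5 to 89.9 FPKM in clutch D (median 58.1) and 46.0 to 142 in clutch E (median 121). Without AGN193109 4E the clutch E range began at 90.9 FPKM, above every clutch D library. Its log2 difference was 0.93 ± 0.18 (limma, adjusted p 0.000282), and 1.13 ± 0.14 after quantile normalization. In vehicle alone, the 4 clutch E libraries lay between 124 and 127 FPKM and the 4 clutch D libraries at 52.96, 31.5, 84.7 and 33.4.

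Cyclin B1, the main mitotic cyclin, had 131 to 173 FPKM in clutch D (median 154) and 116 to 254 in clutch E (median 219.5), and 4E was again the only clutch E library within the range of D or below it, since the others began at 194. Its difference was 0.45 ± 0.10 (limma, adjusted p 0.00133), and 0.64 ± 0.06 after quantile normalization. A ratio of 2 records stays the same when a library is divided by 1 factor, though quantile normalization can change it. The ratio of cyclin B1 to cyclin A2 as deposited was 1.97 to 2.7 in clutch D and 2.92 to 4.82 in clutch E, with no overlap. The ratio of cyclin D1 to the higher cyclin D2 record was likewise 5.51 to 13.4 and 15.8 to 35.6, with no overlap. Both pairs were chosen after their values were seen, and the share of all record pairs with such a gap was not counted. These gaps are therefore description and add no support to the calls of cyclins B1 and D1. Cyclin G1, a p53 target and a member by name, had 4.84 to 11.5 FPKM in clutch D and 7.12 to 24.4 in clutch E in its higher record, a difference of 0.81 ± 0.18 (adjusted p 0.00107).

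As deposited, the higher cyclin A1 record had the largest clutch difference of the 76 members. After quantile normalization, cyclin D1 differed by more than either cyclin A1 record. The 2 cyclin A1 records moved in opposite directions. The higher record had 41.4 to 65.7 FPKM in clutch D (median 49.5) and 13.1 to 33.4 in clutch E (median 24.4), and the lower record had 2.30 to 4.81 in clutch D (median 3.10) and 5.59 to 7.97 in clutch E (median 6.53). Neither record overlapped between the clutches. On the log2 scale the higher record fell by 1.13 ± 0.11 (limma, adjusted p 7.53e-08) and the lower record rose by 0.83 ± 0.09 (adjusted p 2.11e-07), and after quantile normalization the differences were -0.91 ± 0.08 and 1.06 ± 0.09. The summed level of both records was 44.97 to 68.0 FPKM in clutch D (median 52.7) and 18.7 to 40.4 in clutch E (median 30.9), again with no overlap, a difference of -0.86 in log2(FPKM + 1). A permutation test of clutch labels within exposures, 2-sided with 100000 resamples, gave p 2e-05 for the sum. The lower record made up 3.38 to 7.87% of the sum in clutch D and 17.4 to 30.0% in clutch E, a mean difference of 16.2 percentage points (p 1e-05, the smallest these resamples can give). This summing and its test were added after the values were seen, for records picked because they differed between the clutches. With no overlap between the clutches, p-values this small follow from that choice. They add no support beyond the ranges. The other mitotic cyclins called were the maternal cyclin B4, which fell by 0.63 ± 0.11 (adjusted p 0.000124), with 43.5 to 85.5 FPKM in clutch D and 25.2 to 50.3 in clutch E; cyclin A2 at -0.23, the cyclin B3 records at -0.18 and -0.35, and cyclin B5 at -0.27 were not called.

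**Figure D4:**
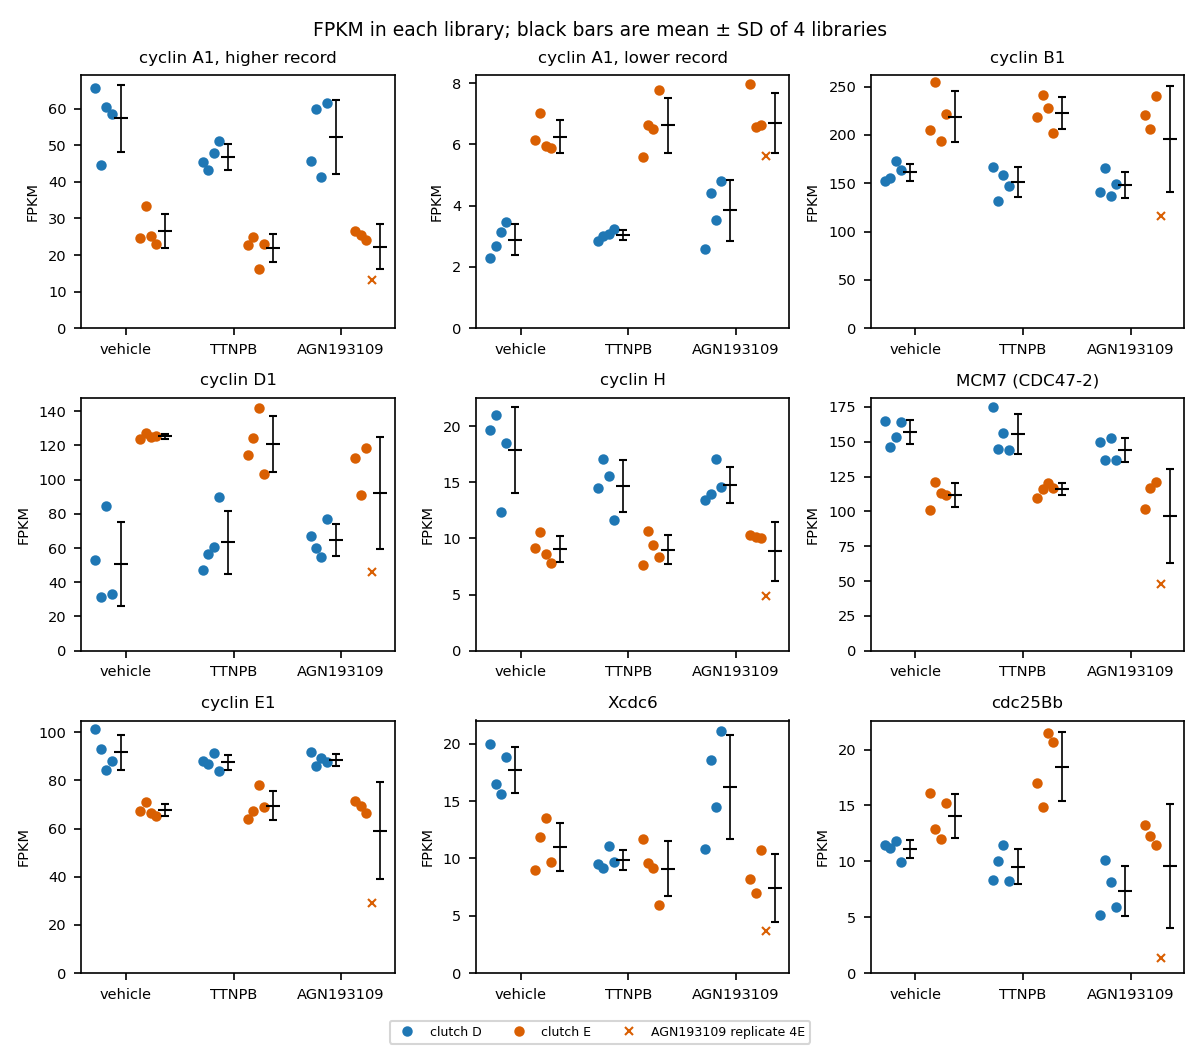
FPKM of 9 records in each library, by exposure and, within an exposure, clutch D to the left and clutch E to the right; points are libraries, bars are mean ± SD of 4 libraries, and the cross is AGN193109 4E. Cyclin D1 and cyclin B1 are higher and cyclin A1 (higher record), cyclin H, MCM7 and cyclin E1 lower in clutch E within each exposure, apart from the cross for cyclins D1 and B1, and Xcdc6 and cdc25Bb are shown for their exposure values.

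Cyclin H, the regulatory subunit of the CDK-activating kinase, was called as deposited and its kinase was not, a contrast that was not tested itself. Cyclin H had 11.6 to 20.9 FPKM in clutch D (median 15.1) and 4.89 to 10.6 in clutch E (median 9.26), with no overlap, and fell by 0.75 ± 0.11 (limma, adjusted p 1.97e-05). Its kinase CDK7 had 12.4 to 18.9 FPKM in clutch D and 4.84 to 17.6 in clutch E and was not called as deposited, and the ratio of CDK7 to cyclin H was 0.63 to 1.26 in clutch D and 0.988 to 1.87 in clutch E. Cyclin E1 had 83.8 to 101.2 FPKM in clutch D and 29.0 to 77.9 in clutch E, again with no overlap, and fell by 0.47 ± 0.11 (limma, adjusted p 0.00202). Cyclins E2 and E3 were not called as deposited, a contrast that was not tested itself. In AGN193109 4E cyclin E1 stood at 29.0 FPKM and cyclin E2 at 47.6. Without that library 2 of the 6 G1 and S cyclins were called lower and 1 higher, beside 30.6% and 8.95% of all tested records. Cdc2 homolog A fell by 0.47 ± 0.17 (adjusted p 0.0347), a call that was lost after quantile normalization and when any of 8 single libraries was left out. After quantile normalization, 1 of the 5 CDKs with their activating complex was called higher and 1 lower. Of the 6 G1 and S cyclins, 2 were then higher and 1 lower, beside 13.2% higher and 14.3% lower over all tested records.

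Origin licensing and firing held 7 of its 14 members lower and 0 higher in clutch E as deposited, beside 28.1% and 3.73% of all tested records. After quantile normalization 5 were lower and 2 higher, beside 14.3% and 13.2%. Without AGN193109 4E, 7 were lower and 2 higher, beside 30.6% and 8.95%. MCM7 had 137 to 175 FPKM in clutch D (median 151) and 48.1 to 121 in clutch E (median 114) with no overlap, a fall of 0.52 ± 0.11 (limma, adjusted p 0.000926), or 0.31 ± 0.05 after quantile normalization. The ORC-associated p81 record also did not overlap, at 4.60 to 7.26 FPKM in clutch D and 2.48 to 4.14 in clutch E, and fell by 0.72 ± 0.08 (adjusted p 6.41e-07). Xcdc6 fell by 0.62 ± 0.15 (adjusted p 0.00325) with ranges that overlapped, 9.19 to 21.1 and 3.69 to 13.5 FPKM. The 2 MCM4 records had differences of opposite sign: the higher record fell by 0.59 ± 0.17 (adjusted p 0.0105), and the lower had a difference of 0.35 ± 0.14 that was not called as deposited (adjusted p 0.0553) and was called after quantile normalization (0.58 ± 0.14, adjusted p 0.00287). Summed, the MCM4 records had 14.7 to 20.3 FPKM in clutch D and 6.71 to 19.1 in clutch E (permutation test within exposures, difference -0.23 in log2, p 0.0303), close to the median of -0.20 over all tested records. Without library 4E, which held the 6.71 FPKM, clutch E began at 12.2 and the difference was -0.14 (p 0.057), both values added after the data were seen. MCM5 and cdc6B fell by 0.34 ± 0.11 and 0.38 ± 0.13 as deposited (adjusted p 0.0238 and 0.0231) and were not called after quantile normalization.

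The calls of the CDC25 phosphatases depended on the scaling. As deposited, 2 of 7 were called, both lower in clutch E: the lower cdc25A record at -0.64 ± 0.15 (limma, adjusted p 0.00185) and the lower record of the cdc25 without a letter at -0.36 ± 0.13 (adjusted p 0.0438), a call lost without AGN193109 4E. After quantile normalization 3 were called higher, cdc25Ba by 0.54 ± 0.10 (adjusted p 0.000363), cdc25Bb by 0.62 ± 0.18 (adjusted p 0.0109) and the higher cdc25A record by 0.42 ± 0.06 (adjusted p 2.4e-05), and 1 lower, the lower cdc25A record. The same 3 were called higher without AGN193109 4E. As deposited, cdc25Ba stood at 19.9 to 45.3 FPKM in clutch D (median 31.4) and 11.2 to 59.2 in clutch E (median 43.1).

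In the mitotic groups, the kinetochore protein zw10, a checkpoint and dynein adaptor, fell in clutch E by 0.58 ± 0.10 (limma, adjusted p 6.57e-05), the APC/C subunit CDC16 by 0.45 ± 0.09 (adjusted p 0.000427), and the polo-like kinase regulator xPlkk1 by 0.50 ± 0.14 (adjusted p 0.00685). These calls held after quantile normalization. CDC20 fell by 0.27 ± 0.10 (adjusted p 0.0371), a call lost under that scaling, where CDCA2 was called higher at 0.51 ± 0.06. The remaining kinetochore members, Ndc80, Nuf2, Spc24 and Spc25, were not called as deposited, though Spc25 had a difference of -0.74 ± 0.30 (adjusted p 0.0627), and Spc24 was called higher after quantile normalization (0.35 ± 0.10). Of the 18 members by name, 8 were lower and 1 higher as deposited, beside 28.1% lower and 3.73% higher over all tested records. After quantile normalization 3 were lower and 4 higher (beside 14.3% and 13.2%), and without AGN193109 4E, 9 were lower and 3 higher (beside 30.6% and 8.95%). The largest falls as deposited were those of CDC42 small effector 2-C (-0.85 ± 0.10), CDC42 (-0.59 ± 0.09) and CDC37 (-0.42 ± 0.10). Leaving out the members by name, 21 of 58 (36.2%) were called, 3 higher and 18 lower, beside 31.9% of all tested records.

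Counted by ranges alone, 6 of the 76 members had 12 clutch D values and 12 clutch E values that did not overlap, 1 higher and 5 lower in E, where 3.63% of all tested records did not overlap. They were both cyclin A1 records, cyclin E1, cyclin H, MCM7 and the ORC-associated p81. In the list of other regulators, 20 of 53 were called between the clutches, 2 higher and 18 lower as deposited and 9 higher and 11 lower after quantile normalization. Both counts were 37.7% of the list, beside 31.9% of all tested records as deposited and 27.5% after quantile normalization. The 2 higher as deposited were the chromosomal passenger survivin at 0.54 ± 0.17 (limma, adjusted p 0.0149) and the checkpoint kinase Mps1/TTK at 0.39 ± 0.10 (adjusted p 0.00378). The largest falls were those of the CDK1-inhibiting kinase Wee1A at -0.83 ± 0.20 (adjusted p 0.00299) and the condensin subunit XCAP-G at -0.73 ± 0.14 (adjusted p 0.000319). Without AGN193109 4E these falls were smaller, -0.64 ± 0.12 and -0.59 ± 0.05. The list then had 5 called higher, among them Claspin, cut5 and XCAP-D2, and 19 lower, 45.3% beside 39.6% of all tested records.

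Of the developmental markers tested between the clutches, 7 of 20 (35%) were called beside 31.9% of all tested records as deposited, and 8 of 20 (40%) beside 27.5% after quantile normalization. Of 7 gastrula markers, 3 were called lower in clutch E and 0 higher under both scalings, and their summed level was 455 to 558 FPKM in clutch D and 212 to 443 in clutch E. Of 8 maternal RNAs, which include cyclins B4 and B5, 2 were lower (velo1 and cyclin B4) and 1 higher (Vg1), with sums of 100.4 to 158 and 57.0 to 125 FPKM. Of 11 early zygotic records, 6 had means under 0.5 FPKM, 5 were tested and 1 was higher (Siamois), with sums of 55.2 to 116 and 42.7 to 99.2 FPKM. Without library 4E, 8 of 20 markers (40%) were called, beside 39.6% of all tested records, and 4 gastrula markers were lower. The clutch E sums then began at 334, 89.6 and 56.7 FPKM for the gastrula, maternal and early zygotic lists. Their part in the clutch differences of the cell cycle members was not tested.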

How the data were processed

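The table gives FPKM per GenBank-type record for 24 libraries of whole gastrulae. Per the labels' protocols, RNA of each pool was turned into amplified cDNA (NuGEN Ovation V2) and into SOLiD fragment libraries; the labels state 5 replicates per clutch, and 4 were analysed here. The deposited FPKM values were made by the authors with TopHat, Bowtie and Cufflinks, per the submitters' processing notes; versions, genome build and transcript set are not given in the sources used here, and coordinates were not used here. FPKM carries no counts, so the depth per library is unknown and no counting error can be given; amplification and a few very abundant records both bear on low values.

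Levels are as deposited. Tests used limma 3.58.1 in R 4.3.3 on log2(FPKM + 1) over the 19635 records whose mean reached 1 FPKM, trended empirical Bayes, exposure and clutch as terms, Benjamini-Hochberg adjustment over all of them and a threshold of 0.05; differences of low records are understated on this scale. Quantile values were re-scaled from the logs. The members, role groups, comparison lists and tests were chosen with earlier results of these data known. Named members are the 10 highest, up to 10 rises and 10 falls per comparison (or the 3 of lowest p), and a set list of core cyclins, CDKs, CDC25, MCM, ORC and polo-like kinases. No 2 of the 24 libraries held identical values (276 pairs, Pearson r 0.756 to 0.953). Alternatives were other pseudocounts, filters, scalings, weights and thresholds, clutch means, single clutches, a replicate block and each library left out in turn. Python 3.11.15 and matplotlib 3.10.9 drew the plots.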

Additional observations from a re-analysis of the deposited data

Results flagged for a closer look

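For the 54 named members, each exposure's 8 libraries were searched for a highest or lowest value set far from its neighbour, and 14 of 162 groups were picked out. Chance flags about 1 in 20 groups of 8 values from a single normal distribution. Each group here holds both clutches and the groups share libraries, so that rate is only a rough guide. AGN193109 4E was the low value in 8 of the 14: CDC14 alpha at 1.19 FPKM (next 2.36), CDK7 at 4.84 (next 13.3), CDK9 at 20.1 (next 47.6), cyclin A2 at 37.0 (next 61.5), the higher cyclin B3 record at 41.6 (next 75.3), cyclin E1 at 29.0 (next 66.4), MCM3 at 2.88 (next 7.26) and the higher MCM4 record at 1.69 (next 8.99). The same library held the lowest of all 24 values for 48 of the 76 members.

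In TTNPB, cdc2 homolog A was highest in library 3D at 44.7 FPKM (next 29.2), p16Xic2 in 4E at 3.82 (next 1.59), and Xcdc6 was lowest in 4E at 5.91 (next 9.15). In vehicle, CDK9 was highest in 1D at 66.2 FPKM (next 53.1), ORC2 in 4D at 3.25 (next 2.19), and the higher cyclin B3 record was lowest in 4E at 77.4 (next 85.3).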

How the results depend on the processing

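The count of 0 members in each exposure comparison and interaction held under every alternative run, including each of the 24 libraries left out, except that library weights called 1 member (CDC14 alpha) lower in TTNPB than in AGN193109. Between clutches the 30 calls (background 31.9%) ranged from 27 (without AGN193109 1D) to 41 (without AGN193109 4E, background 39.6%) over single libraries left out. They were 19 at an adjusted p of 0.01 (4 higher, 15 lower) and 20 in vehicle libraries only (4 higher, 16 lower). No share of all tested records is given for the counts of 27, 19 and 20, so these cannot be set apart from the whole table. Quantile and upper-quartile scaling gave 17 higher and 16 lower (background 27.5% in either direction), and 18 higher and 17 lower (background 27.7%). Quantile normalization without AGN193109 4E, added after seeing the data, gave 21 and 16 (background 35.8%). Both cyclin A1 records and cyclins B1, D1, E1 and H, MCM7, the ORC-associated p81, Xcdc6, the lower cdc25A record, CDC16, zw10, xPlkk1, CDC42, CDC37 and CDC42 small effector 2-C were called in the same direction under all settings that tested them; CDC20 was lost in 9 and the lower record of the cdc25 without a letter in 16 of 24 leave-outs. None of the 30 clutch calls, and none of the 3 members of lowest p in each other comparison, changed direction. Differences that were not called often did: over the alternatives 34, 40 and 49 of the 73 other members crossed 0 in the exposure comparisons, and 26 of the 46 not called between clutches. The members' clutch median went from -0.18 to 0.01 under quantile normalization. Among the other regulators, TTNPB against vehicle went from 0 to 1 without AGN193109 4E. Same-numbered libraries did not deviate together (24 pairs, correlations -0.115 to 0.119, 1 over 0.1), so the numbers do not pair them. With the replicate block, 0 members were called in each exposure comparison and 32 between clutches, and the shares of all tested records are not given. Depth is unknown, so low members such as p16Xic2, ORC2 and Cdc7 limit what can be read from their differences.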
